A study of Capra hircus with 27 samples.

Results

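The 150 genes described here were expressed in heart and in lung of goats and were low in skeletal muscle. They were selected on measured values. For each gene whose ID begins with GOAT_, the level of a tissue was the mean of log2(FPKM + 1) over its 9 libraries, where FPKM is the number of fragments scaled for transcript length and library size. Heart and lung levels had to lie within 2 of each other on this scale, and the lower of them had to exceed the muscle level by at least 1.5. Of 17671 such genes, among 22131 in the table, 274 met both limits, and the 150 with the widest gap to muscle became the members. With the same limits, 381 genes were high in heart and muscle and low in lung, and 59 were high in lung and muscle and low in heart.

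Heart and lung are joined by the pulmonary circulation, are dense with blood vessels and are each wrapped in a serous membrane, whereas skeletal muscle consists mostly of contractile fibres. Cardiac muscle shares much of its contractile machinery with skeletal muscle, and lung does not. Genes of vessel lining, smooth muscle, connective tissue, serous membrane and resident immune cells are among those generally known to be active in heart and lung, but nothing in the files ties an ID to a gene symbol, and the members are therefore named by their IDs alone. Of the members, 60 had an ID in the form of ENSP and 90 in the form of ENSBTAP, the forms of Ensembl protein accessions, and ENSP IDs made up 40% of the members against 47.5% of all GOAT_ genes. GOAT_ENSP00000353608-D2, GOAT_ENSBTAP00000053498-D2 and GOAT_ENSP00000275235-D2 carried a suffix whose meaning is not given in the sources used here. The table also lists GOAT_ENSP00000353608, and the relation between these entries was not tested.

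RNA was measured in goats (Capra hircus) about 3 years old from an indigenous population at 600 m in Ya'an, another at 2000 m in Zhaotong and another at 3000 m in A'ba. Heart, lung and skeletal muscle of each population gave 3 libraries each, 27 in all, made from total RNA with a strand-specific protocol. The animals had no treatment or genetic alteration named in the labels, and altitude cannot be told apart from population or place. In bulk tissue, fewer cells of a type and less RNA per cell cannot be told apart. The study's methods describe unrelated adult females for its low- and high-altitude populations and leave out the goats of 2000 m, for which no source used here says whether the libraries of a tissue came from separate animals. For these the p-values measure only the spread between the samples.

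Over 10943 expressed genes, the library most correlated with each of the 27 libraries came from the same tissue. Marker genes could not be checked without gene symbols. Replicates 1 and 2 of muscle at 600 m differed far less than other replicates did. The robust SD of their log2 ratio was 0.0849, against 0.193 to 0.471 in the other 26 replicate pairs. They were counted as 1 sample in every test, which left 2 muscle samples at 600 m. The table holds no counts, so the depth of the libraries is unknown and no counting error can be given.

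The members spanned a wide range of abundance. Their levels had a median of 4.58 in heart (range 2.01 to 8.48), 4.50 in lung (2.01 to 9.19) and 1.87 in muscle (0.03 to 5.73), in log2(FPKM + 1). As mean FPKM, the medians were 24.6, 22.9 and 2.72. The gap between muscle and the lower of heart and lung had a median of 2.23. It reached at least 2 in 103 members, at least 3 in 26 and at least 4 in 5. These gaps are what the selection used and are given as a description.

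**Figure D1:**
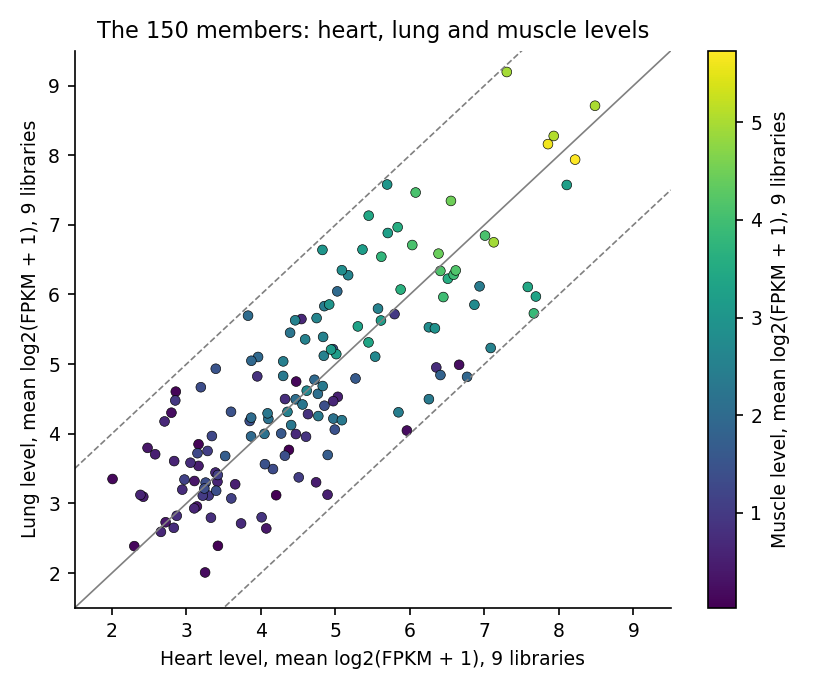
Heart level (horizontal axis) against lung level (vertical axis) of the 150 members, each the mean log2(FPKM + 1) of 9 libraries, with the muscle level as colour. The dashed lines mark a difference of 2, the limit of the selection; 73 members lay on the heart side of the solid line of equal level and 77 on the lung side.

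Members were divided almost evenly by which organ was higher. The heart level was the higher in 73 members and the lung level in 77. Heart and lung lay within 0.5 on the log2 scale in 67 members and within 1 in 102. At the edges, 22 members were over 1 higher in heart and 26 over 1 higher in lung. A mean above 100 FPKM was reached by 18 members in heart and 18 in lung, and by 0 in muscle.

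The widest gap, 4.75, belonged to GOAT_ENSP00000369071. Its FPKM ran from 32.9 to 180 in heart (median 100.2), from 10.6 to 63.0 in lung (median 36.2) and from 0.0765 to 0.352 in muscle (median 0.155). It was high in heart and intermediate in lung, and no muscle library came near. GOAT_ENSP00000397157 had a gap of 4.75 as well, with 43.9 to 65.4 FPKM in heart, 44.3 to 62.1 in lung and 0.215 to 2.67 in muscle. It was the steadier of these members in heart and lung, where its highest library was less than 1.5 times its lowest. GOAT_ENSP00000426083 had 9.27 to 33.8 FPKM in heart, 3.49 to 51.3 in lung and 0 to 0.247 in muscle, the lowest lung value being that of replicate 3 at 600 m.

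GOAT_ENSBTAP00000013169 was abundant in both organs, with 192 to 378 FPKM in heart and 136 to 225 in lung, and 5.72 to 22.4 in muscle. GOAT_ENSP00000269216 had 46.7 to 115 FPKM in heart, 24.5 to 40.9 in lung and 0 to 1.25 in muscle. GOAT_ENSBTAP00000001639 had 17.3 to 45.4 FPKM in heart, 8.96 to 47.0 in lung and 0.149 to 1.18 in muscle. In all 6 of these members, which are the first 6 by gap, every heart and lung library exceeded every muscle library.

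The most abundant members over heart and lung were not those of widest gap. GOAT_ENSBTAP00000020512, at rank 14, had 228 to 500 FPKM in heart, 306 to 536 in lung and 25.5 to 39.8 in muscle. GOAT_ENSBTAP00000000993, at rank 62, had 52.8 to 481 FPKM in heart, 415 to 712 in lung and 16.2 to 69.2 in muscle, so that its lowest heart library lay below its highest muscle library. GOAT_ENSP00000353785, at rank 28, had 92.2 to 582 FPKM in heart, 177 to 602 in lung and 13.8 to 60.2 in muscle. These genes were therefore far from silent in muscle, and were members because heart and lung lay several-fold above it.

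At the limit of the list the gaps were close together. They were 1.80 for GOAT_ENSBTAP00000010178 and 1.79 for GOAT_ENSBTAP00000026577, the last members, and 1.78 for both GOAT_ENSBTAP00000040887 and GOAT_ENSP00000320346, the next outside. GOAT_ENSBTAP00000040887 was listed at 0 in 8 of 9 muscle libraries and at 0.0794 FPKM in the other, and missed the list because its lung level was only 1.80. The list thus orders genes by a difference of log values, and genes listed near 0 in muscle but modest in lung fall below it.

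Low in muscle did not mean absent from it. Mean muscle FPKM, as a percentage of the lower of the heart and lung means, had a median of 14.6% and ranged from 0.220% to 47.1%. No member (0 of 150) was listed at 0 in every muscle library, 23 were listed at 0 in at least 1, and 127 in none. The muscle mean was at most 0.5 FPKM for 23 members and above 10 FPKM for 22. In 131 members the lowest heart or lung library exceeded the highest muscle library, and in 19 the ranges overlapped. Since the selection used these levels, the counts describe the list only.

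Some of the overlap came from values listed at 0 in a library whose replicates were well above it. GOAT_ENSP00000216068 was listed at 0 in heart at 600 m replicate 1, while its other heart libraries held 46.3 to 151 FPKM, and at 0 in 3 muscle libraries, while the other 6 held 8.61 to 37.3 FPKM. GOAT_ENSBTAP00000047526 was listed at 0 in heart at 600 m replicate 3, with 30.7 to 118 FPKM in the other 8 libraries, and at 0 in replicate 1 of muscle at each altitude, with 16.7 to 84.3 FPKM elsewhere. GOAT_ENSBTAP00000014210 was listed at 0 in lung at 600 m replicate 3, with 16.2 to 65.7 FPKM in the other lung libraries, and at 0 in 6 muscle libraries. Such a 0 beside a library of the same tissue above 5 FPKM was found in 6 members, the others being GOAT_ENSP00000215368, GOAT_ENSBTAP00000048739 and GOAT_ENSBTAP00000018580, all of them singled out after their values were seen. With these zeros left out, a choice made after seeing the data, 147 members still met the limits and 139 stayed among the first 150. Whether such a 0 is a failed estimate was not tested.

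The pattern was present in each population taken alone. On the 3 libraries per tissue of 600 m, 134 of the 150 members met both limits, on those of 2000 m 141 did and on those of 3000 m 137 did. The limits were met at every altitude by 117 members, at 2 altitudes by 28, at 1 by 5 and at none by 0. The 5 were GOAT_ENSP00000398365, GOAT_ENSP00000216068, GOAT_ENSP00000369943, GOAT_ENSBTAP00000048739 and GOAT_ENSBTAP00000010178, named after their values were seen. The median gap of the members was 2.16 at 600 m, 2.31 at 2000 m and 2.19 at 3000 m. Among all GOAT_ genes, the limits were met by 273, 373 and 295 at these altitudes. The same libraries took part in the selection, so these counts are a description too.

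In every library the members as a group stood high in heart and lung. Their median log2(FPKM + 1) was 4.30 to 4.70 in the heart libraries, 4.41 to 4.73 in the lung libraries and 1.57 to 1.95 in the muscle libraries. The median over all genes was 0.84 to 1.28, 1.83 to 2.07 and 0.73 to 0.89. Of the 150 members, all or all but 1 exceeded 0.5 FPKM in each heart or lung library and 116 to 125 did in each muscle library. Together they took 0.775% to 0.990% of all FPKM in heart, 1.04% to 1.46% in lung and 0.0905% to 0.144% in muscle.

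**Figure D2:**
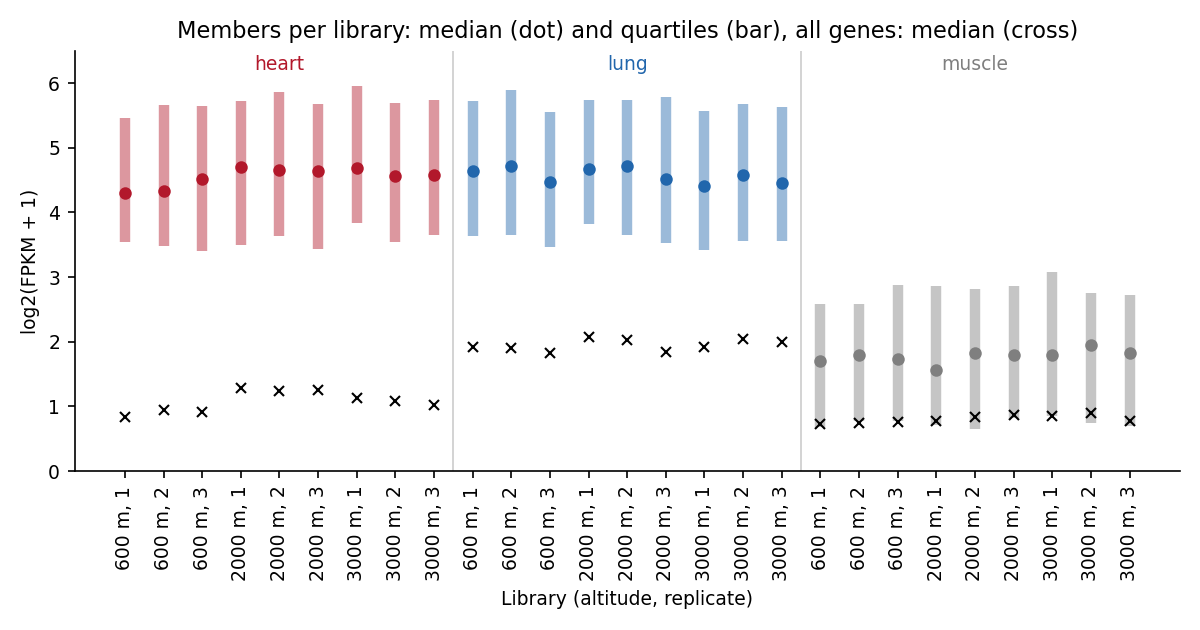
Median log2(FPKM + 1) of the 150 members in each of the 27 libraries (dots) with their quartiles (bars), and the median of all genes (crosses), by tissue, altitude and replicate. Member medians of heart and lung lay between 4.30 and 4.73 at every altitude, and those of muscle between 1.57 and 1.95.

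The members' summed FPKM was ordered by altitude in heart and in the opposite way in lung. Their share of all FPKM was not ordered so. In heart it was 6310 to 6716 at 600 m, 6995 to 7289 at 2000 m and 7212 to 8148 at 3000 m, and the 600 m libraries did not overlap those of 2000 m or 3000 m. In lung it was 7824 to 8275 at 600 m, 7163 to 8137 at 2000 m and 6552 to 7480 at 3000 m. The lung libraries of 600 m lay above those of 3000 m and overlapped those of 2000 m. In muscle it was 782 to 973, 838 to 893 and 915 to 1032, with overlap between all altitudes but 2000 m and 3000 m. The members took 0.775% to 0.810% of all FPKM in heart at 600 m. At 2000 m they took 0.940% to 0.990% there, the highest share, and at 3000 m 0.888% to 0.922%. In lung the share was 1.24% to 1.34% at 600 m, 1.16% to 1.38% at 2000 m and 1.04% to 1.46% at 3000 m. It overlapped between all altitudes. A sum of FPKM is led by its most abundant genes, and no test was made of sum or share.

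Members varied more between replicates than genes in general. The median SD of log2(FPKM + 1) within a tissue and altitude was 0.317 for the members in heart, against 0.224 for all genes tested and 0.216 for genes in the members' range of level. In lung it was 0.334 against 0.266 and 0.252, and in muscle 0.303 against 0.279 and 0.278. The steadiest members were GOAT_ENSBTAP00000036544 in heart (SD 0.0921) and GOAT_ENSP00000275235-D2 in lung (0.118). Muscle values cover the 128 members with a mean above 0.5 FPKM there, of which GOAT_ENSBTAP00000034398 was the steadiest (0.0659). The most variable were GOAT_ENSP00000216068 in heart (2.21), GOAT_ENSBTAP00000014210 in lung (1.80) and GOAT_ENSBTAP00000047526 in muscle (2.75), the members whose zeros are described above.

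Differences between altitudes were not used in the selection and were tested within each tissue with limma on log2(FPKM + 1), over all genes with a mean above 0.5 FPKM. A gene was called at a two-sided Benjamini-Hochberg adjusted p of at most 0.05 over all genes tested in that tissue. All 150 members were tested in heart and in lung, and 128 in muscle. The other 22 members had muscle means of at most 0.5 FPKM with the similar libraries of 600 m merged, which is 1 fewer than over the 9 libraries taken apart. Against 600 m, 46 members were called in some tissue and altitude, and 104 in none. No like count over all genes is given for this total. Counts called under the alternatives below also cover the members alone. The comparisons of 2000 m and of 3000 m with 600 m share their 600 m libraries.

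Heart held most of the members that differed. Between 2000 m and 600 m, 31 of 150 members (20.7%) were called in heart, near the 22.5% called among all genes tested. Of these members 24 rose and 7 fell, beside 2017 rising and 764 falling among all genes called. Between 3000 m and 600 m, 23 members (15.3%) were called, beside 11.1% of all genes. Of these members 20 rose and 3 fell, beside 912 rising and 463 falling among all genes called. The median change over the 150 members was 0.25 at 2000 m and 0.30 at 3000 m, on the log2 scale, beside medians of 0.13 and 0.08 over all genes. At an unadjusted p under 0.05 the members numbered 54 (36%) and 56 (37.3%), beside 37.8% and 31.6% of all genes. Among called members, 12 changed at least 2-fold at 2000 m and 9 at 3000 m.

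The median of all genes in heart moved with altitude as well. In single libraries it was 0.84 to 0.95 at 600 m and 1.03 to 1.28 at the other altitudes. Median-of-ratios scaling brought the median change of all genes between 2000 m and 600 m from 0.13 to -0.01, and that of the members from 0.25 to 0.08. With that scaling 16 members rose and 13 fell at 2000 m, and 14 rose and 5 fell at 3000 m, whereas with quantile normalization 25 rose and 8 fell and then 21 rose and 4 fell. The excess of rising members at 2000 m, which all genes called had as well before scaling, therefore depended on the scaling. The members' medians remained above those of all genes. Leaving out replicate 2 of 2000 m gave 18 members called at 2000 m. At 3000 m, leaving out replicate 1 of 3000 m gave 0 (43 at an unadjusted p under 0.05), replicate 2 or 3 of 600 m 9 or 11, and replicate 3 of 3000 m 10. The calls among all genes without these libraries are not given, so the counts do not set the members apart.

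**Figure D3:**
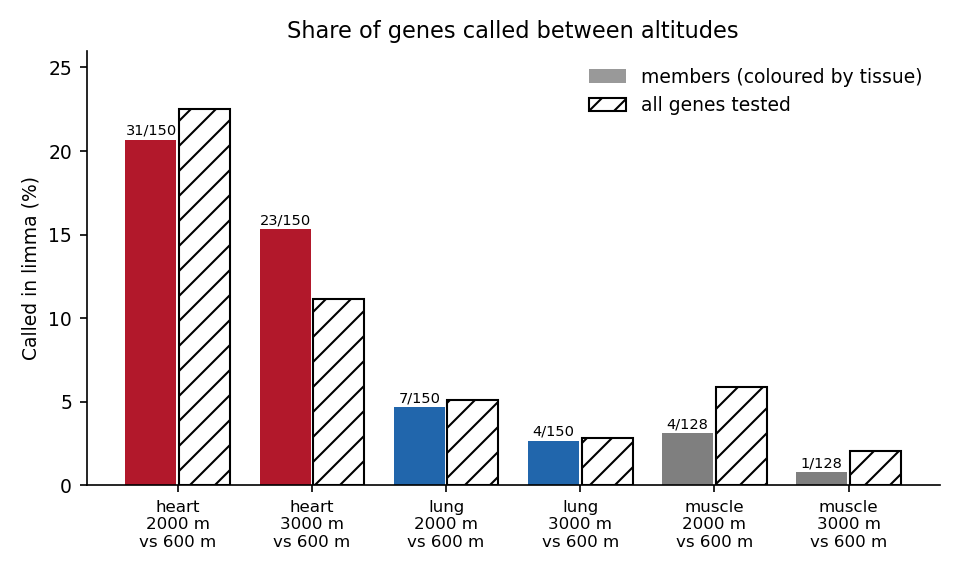
Percentage of genes called in limma against 600 m in each tissue, for the members (filled bars, with the number called of those tested) and for all genes tested (hatched bars). In heart 31 and 23 of 150 members were called, and in lung and muscle no more than 7.

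Among the members called, the largest rise in heart at 2000 m was that of GOAT_ENSBTAP00000020060. Its heart FPKM was 11.3, 5.64 and 7.82 at 600 m, 29.3, 39.3 and 37.0 at 2000 m, and 19.0, 24.9 and 20.6 at 3000 m. The 3 altitudes did not overlap, with 2000 m the highest. The change was 2.002 (SE 0.22, limma adjusted p = 0.00259) at 2000 m and 1.32 (SE 0.22, limma adjusted p = 0.0152) at 3000 m. The first call was kept under each of the 14 alternatives run, and the second was lost without replicate 1 of 3000 m (limma adjusted p = 0.0526).

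GOAT_ENSBTAP00000015248 had 76.7, 54.7 and 46.4 FPKM in heart at 600 m, 204, 135 and 257 at 2000 m, and 166, 175 and 222 at 3000 m. Every heart library of 2000 m and 3000 m exceeded every one of 600 m. The change was 1.71 (SE 0.26, limma adjusted p = 0.00427) at 2000 m and 1.66 (SE 0.26, limma adjusted p = 0.0133) at 3000 m. Its lung libraries, at 90.6 to 124, 97.6 to 157 and 86.6 to 150 FPKM, overlapped between all altitudes. The heart call at 3000 m was lost without replicate 1 of 3000 m (limma adjusted p = 0.0523), and that at 2000 m was kept under every alternative.

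GOAT_ENSBTAP00000016204 fell in heart at 2000 m. Its heart FPKM was 12.8, 10.2 and 13.1 at 600 m, 4.75, 3.67 and 0.476 at 2000 m, and 8.87, 5.79 and 8.56 at 3000 m. The altitudes did not overlap, and the lowest library was replicate 3 of 2000 m. The change at 2000 m was -1.93 (SE 0.43, limma adjusted p = 0.0150), kept under every alternative. GOAT_ENSBTAP00000007934 had 18.5, 11.5 and 27.9 FPKM at 600 m, 2.43, 8.84 and 6.60 at 2000 m, and 4.26, 8.11 and 6.41 at 3000 m. Both higher altitudes lay below 600 m, and the change at 2000 m was -1.59 (SE 0.42, limma adjusted p = 0.0256). That call was lost without replicate 3 of 600 m (limma adjusted p = 0.0807) or replicate 1 or 3 of 2000 m (limma adjusted p = 0.0676 and 0.0505), and with only the compared altitudes in the fit.

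At 3000 m the largest rise in heart among called members was that of GOAT_ENSP00000299198, which was also uneven. Its heart FPKM was 40.3, 15.6 and 14.6 at 600 m, 58.4, 78.7 and 40.8 at 2000 m, and 142, 35.5 and 112 at 3000 m. Replicate 2 of 3000 m lay below replicate 1 of 600 m, so the groups overlapped. The change was 1.93 (SE 0.53, limma adjusted p = 0.0477), and it was lost without any of replicates 2 and 3 of 600 m or replicates 1 and 3 of 3000 m (limma adjusted p = 0.126 to 0.151). It was also lost with median-of-ratios scaling, with quantile normalization, with no filter on low values and with only the compared altitudes in the fit (limma adjusted p = 0.0588 to 0.0957).

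GOAT_ENSBTAP00000000993, the most abundant member in lung, had 83.5, 82.0 and 52.8 FPKM in heart at 600 m, 158, 221 and 230 at 2000 m, and 184, 481 and 218 at 3000 m. All heart libraries of the higher altitudes exceeded those of 600 m, with replicate 2 of 3000 m far above the rest. The heart change was 1.475 (SE 0.34, limma adjusted p = 0.0172) at 2000 m and 1.90 (SE 0.34, limma adjusted p = 0.0164) at 3000 m. In lung it had 552 to 620 FPKM at 600 m, 569 to 712 at 2000 m and 415 to 626 at 3000 m, which overlapped. The heart calls were lost without replicate 3 of 600 m (limma adjusted p = 0.0573 at 2000 m and 0.0523 at 3000 m), that at 2000 m without replicate 2 or 3 of 2000 m (limma adjusted p = 0.0571 and 0.0553), and that at 3000 m without replicate 1 of 3000 m (limma adjusted p = 0.0523) or with only the compared altitudes (limma adjusted p = 0.0506).

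GOAT_ENSBTAP00000005239 had the largest fall in heart at 3000 m among called members. Its heart FPKM was 110, 192 and 169 at 600 m, 63.8, 61.6 and 79.1 at 2000 m, and 51.4, 64.9 and 55.4 at 3000 m, with no overlap between 600 m and the other altitudes. The change was -1.16 (SE 0.21, limma adjusted p = 0.00716) at 2000 m, kept under every alternative, and -1.41 (SE 0.21, limma adjusted p = 0.0133) at 3000 m, lost without replicate 1 of 3000 m (limma adjusted p = 0.0523). GOAT_ENSBTAP00000025337 had 14.7, 9.97 and 9.44 FPKM at 600 m, 10.5, 11.9 and 9.70 at 2000 m, and 5.67, 6.32 and 6.49 at 3000 m. Here 3000 m alone was low, with a change of -0.77 (SE 0.17, limma adjusted p = 0.0266). It was lost without replicate 2 of 600 m or any replicate of 3000 m (limma adjusted p = 0.0536 to 0.0969), and with only the compared altitudes (limma adjusted p = 0.0696).

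Of the 6 members with the widest gap to muscle, 2 were called, both in heart. There 22.5% of all genes tested were called at 2000 m and 11.1% at 3000 m. GOAT_ENSBTAP00000001639 had 17.3, 23.7 and 23.8 FPKM in heart at 600 m, 41.8, 41.0 and 42.2 at 2000 m, and 37.3, 45.4 and 26.7 at 3000 m, and no 600 m library reached the others. It rose by 0.93 (SE 0.20, limma adjusted p = 0.0124) at 2000 m, kept under every alternative, and by 0.71 (SE 0.20, limma adjusted p = 0.0476) at 3000 m. GOAT_ENSBTAP00000013169 had 263, 192 and 212 FPKM at 600 m, 267, 295 and 290 at 2000 m, and 378, 288 and 330 at 3000 m, and rose by 0.58 (SE 0.16, limma adjusted p = 0.0427) at 3000 m. Leaving out replicate 1 of 3000 m ended both calls at 3000 m (limma adjusted p = 0.138 and 0.148). The first was also lost without any replicate of 600 m or replicate 2 of 3000 m (limma adjusted p = 0.0766 to 0.114), and the second without replicate 2 or 3 of 600 m or replicate 3 of 3000 m (limma adjusted p = 0.0993 to 0.129). Both were lost with no filter and with only the compared altitudes (limma adjusted p = 0.0546 to 0.107), the first with no trend (limma adjusted p = 0.0517) and the second with median-of-ratios scaling (limma adjusted p = 0.111).

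Members on the heart side and on the lung side of the list were both among those called in heart. Of the 73 members higher in heart, 18 were called in heart at 2000 m and 16 at 3000 m, with median changes of 0.24 and 0.36 over all 73. Of the 77 members higher in lung, 13 and 7 were called, with median changes of 0.29 and 0.30. Among all genes tested in heart, 22.5% and 11.1% were called, with median changes of 0.13 and 0.08. No test was made of the difference between these subgroups.

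In lung, few members differed between altitudes. Between 2000 m and 600 m, 7 of 150 members (4.67%) were called, close to the 5.10% of all genes. Of these members 6 rose and 1 fell, beside 310 rising and 402 falling among all genes called. Between 3000 m and 600 m, 4 members (2.67%) were called, close to the 2.84% of all genes. Of these members 1 rose and 3 fell, beside 102 rising and 294 falling among all genes called. The median change of the members was -0.01 and -0.10, beside -0.05 and -0.08 over all genes. At an unadjusted p under 0.05 there were 44 (29.3%) and 41 (27.3%) members, beside 29.1% and 26.6% of all genes. Leaving out replicate 1 of 600 m raised the counts of members called to 19 and 17, and leaving out any other compared library took them to 0. The calls among all genes without these libraries are not given. With median-of-ratios scaling 1 member rose and 1 fell at 3000 m, and with quantile normalization 0 were called.

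GOAT_ENSP00000398539 rose in lung at 2000 m. Its lung FPKM was 94.5, 71.7 and 55.2 at 600 m, 176, 148 and 154 at 2000 m, and 92.4, 76.6 and 83.7 at 3000 m, so that 2000 m stood above both other altitudes. The change was 1.13 (SE 0.20, limma adjusted p = 0.0358), lost with only the compared altitudes (limma adjusted p = 0.0532). GOAT_ENSBTAP00000035185 had 52.0, 37.5 and 37.9 FPKM in lung at 600 m, 91.4, 84.6 and 103 at 2000 m, and 65.8, 46.3 and 68.5 at 3000 m, with a change of 1.12 (SE 0.20, limma adjusted p = 0.0358) at 2000 m. Here too the lung libraries of 2000 m lay above all others.

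GOAT_ENSP00000309913 rose in lung at both higher altitudes. Its lung FPKM was 9.48, 9.70 and 7.29 at 600 m, 13.7, 15.5 and 14.6 at 2000 m, and 16.1, 16.5 and 14.4 at 3000 m. No 600 m library reached the others. The change was 0.67 (SE 0.15, limma adjusted p = 0.0440) at 2000 m and 0.77 (SE 0.15, limma adjusted p = 0.0442) at 3000 m. Its heart libraries held 18.8 to 25.8, 20.1 to 24.1 and 13.2 to 20.8 FPKM, and its muscle libraries did not exceed 0.0972 FPKM. GOAT_ENSBTAP00000019785 had 21.2, 36.7 and 30.2 FPKM in lung at 600 m, 35.3, 25.1 and 21.7 at 2000 m, and 15.6, 7.75 and 10.6 at 3000 m. Only 3000 m was low, with a change of -1.32 (SE 0.29, limma adjusted p = 0.0491). The remaining member called at 3000 m, GOAT_ENSBTAP00000011612, named after its values were seen, fell by 0.79 on the log2 scale (SE 0.17, limma adjusted p = 0.0479). The call of GOAT_ENSP00000309913 at 2000 m was lost with no filter, only the compared altitudes or no trend (limma adjusted p = 0.0508 to 0.0637), and that at 3000 m with quantile normalization or only the compared altitudes (limma adjusted p = 0.0512 and 0.106). That of GOAT_ENSBTAP00000019785 was lost with either scaling, no filter, only the compared altitudes or no trend (limma adjusted p = 0.0556 to 0.107).

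GOAT_ENSBTAP00000008933 fell in lung at both altitudes and rose in heart at 3000 m. Its lung FPKM was 23.9, 37.5 and 30.6 at 600 m, 13.1, 11.2 and 10.6 at 2000 m, and 15.001, 16.0 and 13.1 at 3000 m, with 600 m above all others. Its heart FPKM was 34.7, 21.5 and 24.2 at 600 m, 31.2, 32.7 and 22.6 at 2000 m, and 52.3, 37.5 and 55.8 at 3000 m, where 3000 m stood above the other altitudes. In lung the change was -1.31 (SE 0.18, limma adjusted p = 0.0304) at 2000 m and -0.99 (SE 0.18, limma adjusted p = 0.0442) at 3000 m. In heart it was 0.11 (SE 0.22, limma adjusted p = 0.744) and 0.84 (SE 0.22, limma adjusted p = 0.0429). The heart call was lost without any of replicates 2 and 3 of 600 m or replicates 1 and 3 of 3000 m (limma adjusted p = 0.113 to 0.134), and also with median-of-ratios scaling, quantile normalization, no filter or only the compared altitudes (limma adjusted p = 0.0608 to 0.0849). The lung call at 3000 m was lost with quantile normalization (limma adjusted p = 0.0512) and with only the compared altitudes (limma adjusted p = 0.106). For the named lung calls at 2000 m, leaving out any compared library other than replicate 1 of 600 m gave limma adjusted p = 0.0596 to 0.154, and for those at 3000 m 0.0743 to 0.164.

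Members called in both organs were counted at each altitude. At 2000 m, 3 were called in heart and lung, which is 9.68% of the heart calls and 42.9% of the lung calls, and all 3 rose in both. They were GOAT_ENSBTAP00000020060, GOAT_ENSBTAP00000015210 and GOAT_ENSBTAP00000035185. At 3000 m, GOAT_ENSBTAP00000008933 was the member called in both, with opposite signs, and made up 4.35% of the heart calls and 25% of the lung calls. No like share over all genes is given, so these counts describe the members only.

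GOAT_ENSBTAP00000015210 was the member called in all tissues at 2000 m. Its FPKM in heart was 16.7, 13.4 and 12.4 at 600 m, 37.4, 37.0 and 41.3 at 2000 m, and 37.6, 33.1 and 29.2 at 3000 m. In lung it was 15.2, 13.4 and 12.02, then 24.6, 27.4 and 20.0, then 19.5, 18.9 and 16.6. In muscle it was 2.21, 2.69 and 2.37, then 6.19, 7.71 and 6.46, then 4.40, 2.88 and 5.16. In each tissue every library of the higher altitudes exceeded those of 600 m, and in lung and muscle 2000 m exceeded 3000 m throughout.

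Its change at 2000 m was 1.39 in heart (SE 0.15, limma adjusted p = 0.00239). It was 0.78 in lung at the same altitude (SE 0.16, limma adjusted p = 0.0408), and for muscle it came to 1.19 (SE 0.24, limma adjusted p = 0.0308). In heart at 3000 m it was 1.18 (SE 0.15, limma adjusted p = 0.0101). The heart call at 2000 m was kept under every alternative, and that at 3000 m was lost without replicate 1 of 3000 m (limma adjusted p = 0.0523). The lung call was lost without any compared library but replicate 1 of 600 m (limma adjusted p = 0.0859 to 0.144), and the muscle call without any compared sample (limma adjusted p = 0.0538 to 0.185). With no filter both were lost (limma adjusted p = 0.0511 and 0.0734), and the lung call also with only the compared altitudes (limma adjusted p = 0.0570).

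GOAT_ENSBTAP00000020060 had 9.18, 13.6 and 12.4 FPKM in lung at 600 m, 21.7, 30.5 and 22.3 at 2000 m, and 11.2, 11.2 and 13.2 at 3000 m. It was high at 2000 m alone, with a change of 1.02 (SE 0.19, limma adjusted p = 0.0361). GOAT_ENSBTAP00000035185 had 61.6, 50.7 and 82.2 FPKM in heart at 600 m, 109, 90.3 and 96.2 at 2000 m, and 98.9, 121 and 90.9 at 3000 m, with 600 m below the others. Its heart change was 0.62 (SE 0.19, limma adjusted p = 0.0423) at 2000 m and 0.69 (SE 0.19, limma adjusted p = 0.0467) at 3000 m. The call at 2000 m was lost without replicate 1 or 2 of 600 m or any replicate of 2000 m (limma adjusted p = 0.0718 to 0.127), and that at 3000 m without replicate 1 or 2 of 600 m or any replicate of 3000 m (limma adjusted p = 0.0640 to 0.132). Median-of-ratios scaling, no filter and only the compared altitudes ended both heart calls (limma adjusted p = 0.0547 to 0.101), and a fit with no trend ended that at 3000 m (limma adjusted p = 0.0515). The lung call of GOAT_ENSBTAP00000020060 was lost with only the compared altitudes (limma adjusted p = 0.0532).

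**Figure D4:**
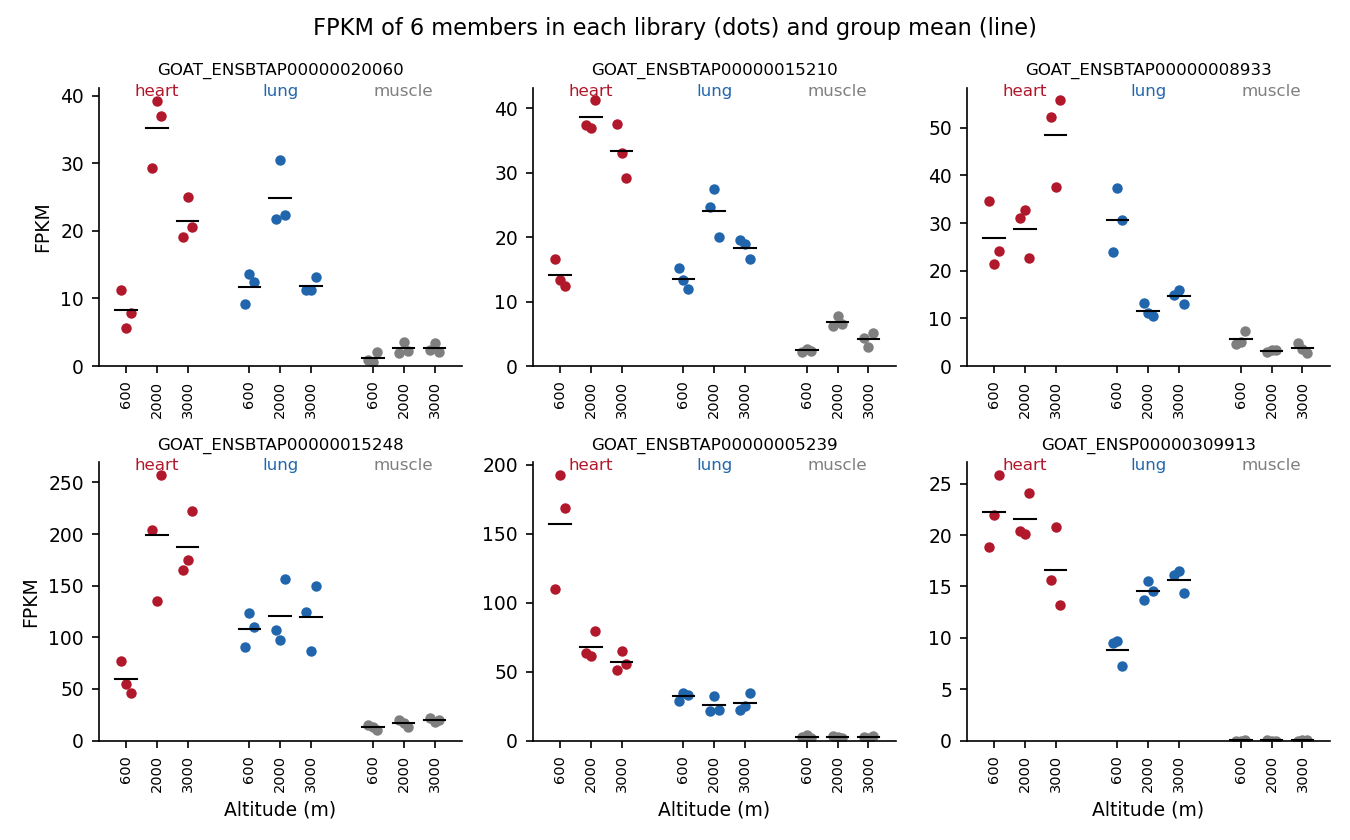
FPKM (vertical axes, from 0) of 6 members in each library (dots) by tissue and altitude, with a line at the group mean. GOAT_ENSBTAP00000015210 was lowest at 600 m in each tissue, and GOAT_ENSBTAP00000008933 was highest at 600 m in lung and at 3000 m in heart; the dots of muscle replicates 1 and 2 at 600 m were counted as 1 sample in tests.

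In muscle the members were low by selection. Between 2000 m and 600 m, 4 of the 128 members tested (3.13%) were called, beside 5.91% of all genes. Of these members 2 rose and 2 fell, beside 230 rising and 474 falling among all genes called. Between 3000 m and 600 m 1 (0.781%) was called, beside 2.08% of all genes. At an unadjusted p under 0.05 there were 22 (17.2%) and 26 (20.3%), beside 27.2% and 22.8% of all genes. The median change over the tested members was -0.07 and 0.01, beside -0.12 and -0.08 over all genes. At 2000 m the count was 0 without replicate 3 of 600 m or replicate 2 or 3 of 2000 m, 1 without replicate 1 of 2000 m and 8 without the merged sample. At 3000 m it was 0 without replicate 3 of 600 m or replicate 1 or 3 of 3000 m, and 4 without the merged sample or replicate 2 of 3000 m.

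The muscle rise called at both altitudes was that of GOAT_ENSP00000275235-D2. Its muscle FPKM was 4.12, 4.56 and 4.48 at 600 m, 9.38, 10.04 and 12.99 at 2000 m, and 11.2, 10.7 and 9.83 at 3000 m, with every 600 m library below the others. The change was 1.11 (SE 0.21, limma adjusted p = 0.0268) at 2000 m and 1.10 (SE 0.21, limma adjusted p = 0.0364) at 3000 m. The first was lost without replicate 3 of 600 m or replicate 2 or 3 of 2000 m (limma adjusted p = 0.0743 to 0.141), and the second without either 600 m sample or replicate 1 or 3 of 3000 m (limma adjusted p = 0.0579 to 0.178). With no filter or only the compared altitudes both were lost (limma adjusted p = 0.0532 to 0.102).

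GOAT_ENSBTAP00000004364, the member most abundant in muscle, had 86.7, 84.1 and 84.7 FPKM there at 600 m, 38.8, 34.1 and 31.2 at 2000 m, and 39.8, 62.0 and 45.2 at 3000 m. All libraries of the higher altitudes lay below 600 m, and the change at 2000 m was -1.27 (SE 0.23, limma adjusted p = 0.0254). GOAT_ENSP00000356465 had 8.58, 6.94 and 8.24 FPKM at 600 m, 3.37, 2.75 and 4.27 at 2000 m, and 5.59, 4.34 and 3.04 at 3000 m, again below 600 m throughout. Its change at 2000 m was -1.03 (SE 0.26, limma adjusted p = 0.0483). The call of GOAT_ENSBTAP00000004364 was lost without replicate 3 of 600 m or any replicate of 2000 m (limma adjusted p = 0.0511 to 0.140), and that of GOAT_ENSP00000356465 without any compared sample (limma adjusted p = 0.0837 to 0.282). No filter ended both (limma adjusted p = 0.0543 and 0.0997), and either scaling, a pseudocount of 0.1 or only the compared altitudes ended the latter (limma adjusted p = 0.0520 to 0.0739).

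Between 3000 m and 2000 m, 0 members were called in limma in any tissue. Among all genes the share called was 0.00809% in heart, 0.00% in lung and 0.00839% in muscle. At an unadjusted p under 0.05 there were 29 members in heart (19.3%), 16 in lung (10.7%) and 19 in muscle (14.8%). The shares of all genes were 14.5%, 5.78% and 8.82%. The median change of the members was 0.07, -0.11 and 0.06, beside -0.06, -0.03 and 0.05 over all genes. No difference between these populations was detectable for a member at this number of samples, and the counts stayed at 0 under every alternative run.

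Whether the change between altitudes differed between heart and lung was tested as the lung change minus the heart change. Heart and lung libraries were taken as independent samples here, and a fit with the animal as a block is given below. For 2000 m against 600 m, 0 of 150 members were called in limma, beside 0.117% of all genes. At an unadjusted p under 0.05 there were 23 (15.3%), beside 14.7% of all genes. For 3000 m against 600 m 1 member (0.667%) was called, beside 0.0836% of all genes. At 3000 m the lung change was the smaller in 115 members and the larger in 35 (23.3%). Among all genes it was the larger in 30.1%, so most genes had the smaller lung change as well. The median difference was -0.32 for the members, beside -0.17 over all genes. With median-of-ratios scaling the medians were -0.16 and -0.03.

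The member called was GOAT_ENSBTAP00000008933, for which the lung change minus the heart change was -1.84 (SE 0.30, limma adjusted p = 0.0317) at 3000 m. The corresponding value at 2000 m was -1.42 (SE 0.30, limma adjusted p = 0.0758). Heart and lung libraries of equal replicate number were read as the same animal, from correlations and not from a label. With the animal so read as a block, the limma adjusted p at 3000 m was 0.0506, and the call was lost. The call was also lost without replicate 2 or 3 of 600 m or replicate 1 or 3 of 3000 m in either organ (limma adjusted p = 0.0648 to 0.116), with only the compared altitudes (limma adjusted p = 0.0938) and with median-of-ratios scaling (limma adjusted p = 0.0815). With that scaling GOAT_ENSP00000309913, which rose in lung, was the member called, at 1.32 (SE 0.20, limma adjusted p = 0.0315; 1.18 and 0.0834 without scaling), and quantile normalization called it beside GOAT_ENSBTAP00000008933 at 1.34 (SE 0.20, limma adjusted p = 0.0204).

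With the animal as a block, 3 members were called at 2000 m and 2 at 3000 m, all named after their values were seen. At 2000 m the lung change minus the heart change was -1.58 for GOAT_ENSBTAP00000015248 (limma adjusted p = 0.0364), 1.47 for GOAT_ENSP00000388809 (limma adjusted p = 0.0339) and -1.32 for GOAT_ENSBTAP00000004093 (limma adjusted p = 0.0364). At 3000 m it was -2.08 for both GOAT_ENSBTAP00000000993 (limma adjusted p = 0.0484) and GOAT_ENSBTAP00000004093 (limma adjusted p = 0.0238). GOAT_ENSP00000388809 had 16.7, 23.9 and 19.5 FPKM in heart at 600 m and 9.56, 6.56 and 9.58 at 2000 m, with 17.64, 18.1 and 10.95 and then 18.9, 18.4 and 21.1 in lung. It was lower in heart at 2000 m and not in lung.

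**Figure D5:**
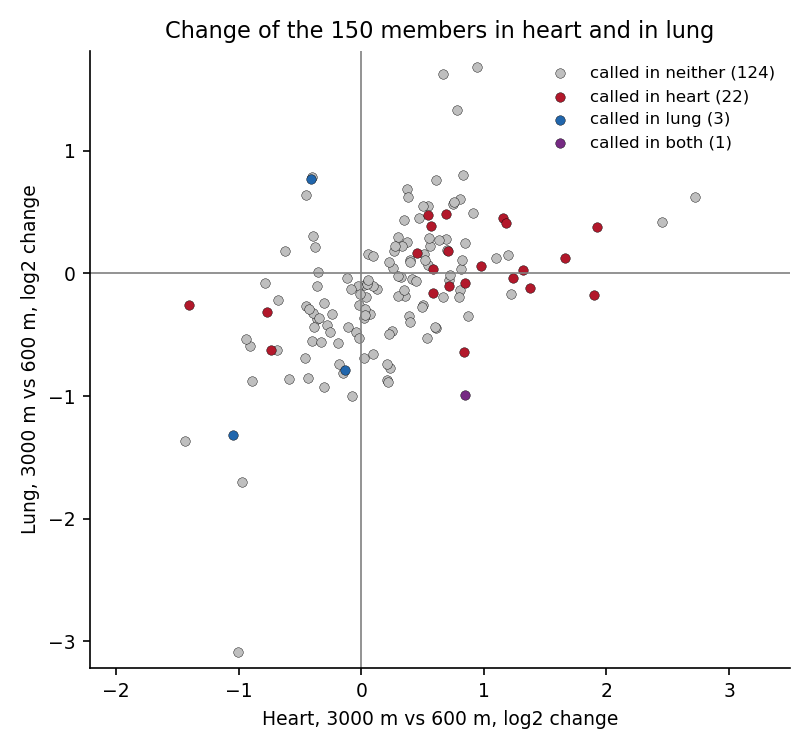
Log2 change between 3000 m and 600 m in heart (horizontal axis) and in lung (vertical axis) of the 150 members, coloured by the tissue in which limma called them. Called members lay mostly to the right of the vertical line, 20 of the 23 called in heart having risen, while the 4 called in lung included 3 that fell.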

How the data were processed

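The authors aligned RNA-seq reads to a goat genome assembly with TopHat 2.0.11, estimated FPKM with Cufflinks 2.2.1 (versions per the submitters' processing notes) and deposited log2(FPKM + 1) for each gene and library. Their filter on low FPKM is not applied in the table, and their published methods cover a low- and a high-altitude goat population, without the animals of 2000 m. Every column was matched to a sample by its title. None of the 22131 IDs matched the RefSeq table, so the lists of marker and pathway genes drawn up were not used. Members, lists and named genes were chosen with earlier results of these data known. Altitudes were compared within a tissue with limma 3.58.1 in R 4.3.3 (empirical Bayes with a trend, two-sided, Benjamini-Hochberg) in place of Cuffdiff, which needs other files. SEs are moderated standard errors of the fit. The code was tested on simulated data. Named genes were the first 6 members by gap, the 3 most abundant, the last 2 inside and first 2 outside the list, and for each comparison up to 2 rising and 2 falling called members. Within an altitude, heart and lung libraries with the same number deviated together from their group means (r from 0.159 to 0.497), and those with different numbers less so (r from -0.426 to 0.152). Equal numbers were therefore read as the same goat. Alternatives were other pseudocounts, filters, scalings, sample sets and blocks, and leaving out each library.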

Additional observations from a re-analysis of the deposited data

Results flagged for a closer look

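For GOAT_ENSBTAP00000008933 the change between 3000 m and 600 m went in opposite directions in heart and lung, and the test of that difference passed the threshold. The lung change minus the heart change was -1.84 on the log2 scale (SE 0.30, limma adjusted p = 0.0317), with the lung FPKM of all 3 goats of 3000 m below those of 600 m and the heart FPKM of all 3 above them. With the animal as a block, as inferred from replicate numbers, the limma adjusted p was 0.0506 and did not pass. GOAT_ENSBTAP00000000993 and GOAT_ENSBTAP00000004093 were called with the block instead. In the fit that gave limma adjusted p = 0.0317, no other member passed this test, among 150 tested. The call of GOAT_ENSBTAP00000008933 was lost in 11 of the 20 alternatives run for it. With median-of-ratios scaling its limma adjusted p was 0.0815, and GOAT_ENSP00000309913 was called in its place (limma adjusted p = 0.0315). Quantile normalization called both.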

How the results depend on the processing

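The direction of the 35 calls of named members held under every alternative run, but 29 of the calls were lost under at least 1 of them. Of the recomputed values of these calls, 307 stayed past the threshold and 189 did not. The cause was not tested. Of the 150 members, 92 were among the first 150 with a pseudocount of 0.1, 94 with quantile normalization and 99 with median-of-ratios scaling, and between 102 and 143 under the other alternatives. In heart at 3000 m against 600 m the count of members called was 15 with no filter and 7 with only the compared groups. In lung at 2000 m it was 4 and 2, and at 3000 m 2 and 0, while at 3000 m median-of-ratios scaling and a fit with no trend gave 2 each and quantile normalization 0. In muscle it was 0 and 2 at 2000 m and 0 and 0 at 3000 m, and with both similar 600 m libraries kept apart it was 8 and 5. For the lung change minus the heart change at 3000 m, quantile normalization gave 2 and the compared groups alone 0. Median-of-ratios scaling gave 1 there as well, but for GOAT_ENSP00000309913 in place of GOAT_ENSBTAP00000008933.

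Leaving out 1 library gave 18 to 38 members in heart at 2000 m and 0 to 33 at 3000 m, 0 to 19 and 0 to 17 in lung, and 0 to 8 and 0 to 4 in muscle. For the lung change minus the heart change it gave 0 to 1 at 2000 m and 0 to 4 at 3000 m. All counts in this section are of members, without the calls among all genes under the same alternative.

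Replicates of different altitudes share only a number, and a replicate block on it gave 30 members in heart at 2000 m and 16 at 3000 m, 0 and 0 in lung, and 3 and 0 in muscle. With the paired libraries of an animal as the block, 3 members were called for the lung change minus the heart change at 2000 m and 2 at 3000 m. Under a block 19 of the 35 calls of named members were lost (limma adjusted p = 0.0505 to 0.0906), among them every named lung call, and 14 were lost with no filter and 20 with only the compared groups. Between 3000 m and 2000 m every alternative gave 0. With 3 libraries a group and no counts, the precision at low FPKM is unknown.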

Other observations

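Members did not vary together from goat to goat more than other genes did. Over the 11175 pairs of members, the median correlation of deviations from the group means was 0.0120 in heart and 0.0479 in lung, beside 0.099 and 0.067 over all pairs of genes tested. Pairs with r above 0.8 made up 2.69% and 3.16% of the member pairs, and 3.58% and 3.20% of all pairs. Each r rests on 9 libraries of 3 groups that share library scaling, and none was tested.

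GOAT_ENSBTAP00000004093, named after its values were seen, varied widely between libraries of a group and in a like order in the tissues. At 600 m its FPKM in replicates 1, 2 and 3 was 13.1, 123 and 511 for heart. The lung values were 36.5, 405 and 943, and the muscle values 18.0, 19.8 and 132. At 3000 m its heart held 101, 14.8 and 66.7 FPKM, its lung 52.8, 7.85 and 48.2, and its muscle 18.9, 1.35 and 10.8. Replicate 3 of 600 m was the highest and replicate 2 of 3000 m the lowest of these libraries in lung and muscle.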
